A study of Mus musculus with 10 samples.

Results

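The trimethylation of lysine 4 of histone H3 (H3K4me3) was compared between Oct4+ nEnd, with 4 CUT&Tag libraries, and Pdgfra+ nEnd, with 3, which are 7 of the 10 libraries of the series used here. Each of 21853 protein-coding genes was given, in each library, its strongest H3K4me3 peak over the promoter. Promoters reached from 1000 bp before to 100 bp after any transcription start site (TSS), and a gene with such a peak is called marked. The comparison asked which promoters carried the mark in one population and not in the other, which ranked differently, and which differed in the width of the peak.

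Both populations were nEnd, an in vitro model of the primitive endoderm (PrE) grown from mouse embryonic stem cells (ESCs) that carry an OCT4-mCherry reporter, and the labels give no treatment for either. The cultures held LIF, Activin A and CHIR99021 in RPMI medium, on feeder layers of mouse embryonic fibroblasts. Cells were sorted by mCherry and by an antibody to PDGFRA, so Oct4+ nEnd was mCherry-positive without PDGFRA, Pdgfra+ nEnd was the reverse, and the 3 libraries left aside were of the double-positive (DP) cells. All libraries came from the 1 reporter line, and the gates themselves used *Pou5f1* (the gene for OCT4) and *Pdgfra*, whose promoters are therefore a check of the sort and not a finding.

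H3K4me3 lies over the start sites of genes that are transcribed or ready to be, and it is laid down mostly at promoters rich in CpG dinucleotides. In many cell types the widest H3K4me3 domains cover genes that set the identity of the cell. In the blastocyst, the epiblast (Epi) depends on factors such as NANOG and SOX2, while the PrE depends on GATA6, GATA4, SOX17 and PDGFRA signalling and goes on to secrete a basement membrane of laminin and type IV collagen.

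Each library was a list of SEACR peaks with their total signal, the coverage summed over the peak, which grows with the width of the peak as well as its height. No source used here says whether coverage was scaled between libraries, and the sequencing depth is unknown, so every peak was given its percentile by total signal within its own library, from 0 for the weakest to 100 for the strongest. The libraries held at most 9144 peaks in Oct4+ nEnd and 6510 to 10545 in Pdgfra+ nEnd, and marked 3959 to 9406 and 7268 to 10997 genes, respectively. Oct4+ nEnd replicate 3 had the fewest peaks, so each comparison was repeated with equal peak numbers, keeping from every library as many of its strongest peaks as that library held. The study calls its replicates biological without saying whether each was a separate culture, so p-values measure the spread between these libraries, and in sorted bulk cells fewer cells with a mark and less of the mark per cell cannot be told apart.

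The gates matched their labels. *Pou5f1*, *Nanog*, *Sox2*, *Esrrb* and *Zfp42* (also called Rex1) were marked in 4 of 4 Oct4+ nEnd libraries, and of these only *Zfp42* had a peak in a Pdgfra+ nEnd library, at percentile 1.07 in replicate 1. *Pdgfra*, *Gata6*, *Gata4*, *Sox17*, *Foxa2* and *Dab2* were marked in 3 of 3 Pdgfra+ nEnd libraries. In Oct4+ nEnd, *Foxa2* and *Dab2* had no peak, *Pdgfra* and *Gata4* had one in replicate 1 alone, *Gata6* reached percentile 31.9 at most and *Sox17* 41.0.

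Most markers of embryonic fibroblasts had no peak, while mesoderm and trophectoderm genes were marked in part. Of 20 markers of embryonic fibroblasts, which served as feeders and can carry PDGFRA, 16 were marked in none of the 7 libraries, among them *Col1a1*, *Col1a2*, *Col3a1*, *Thy1* and *Pdgfrb*, which is 80% of the list beside 47.5% of all genes. The share of this list with a peak was 0 to 5% in Oct4+ nEnd and 0 to 20% in Pdgfra+ nEnd. Of 16 mesoderm genes 8 were marked in none, 50% and near the share over all genes, and the defining factors *T*, *Mesp1* and *Mixl1* were among these 8. The share of the mesoderm list with a peak was 25, 18.8, 0 and 0% in Oct4+ nEnd and 43.8, 6.25 and 6.25% in Pdgfra+ nEnd. Of 20 genes of the trophectoderm, the outer layer of the blastocyst, 15 to 30% were marked in Oct4+ nEnd and 35 to 60% in Pdgfra+ nEnd, near the 18.1 to 43.0% and 33.3 to 50.3% of all genes. *Cdx2*, its defining factor, was marked in Pdgfra+ nEnd replicates 1 and 3 at percentiles 50.6 and 24.2, and *Elf5* and *Hand1* in none. The part of such cells in the results was not tested.

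The promoters of *Nanog*, *Sox2*, *Foxa2*, *Flt1* and *Tet1* show what was compared, since the mark was found over only one population at 4 of them and over both at the fifth. The sequences are the 250 bases upstream of the RefSeq start, 5′ to 3′ on the strand of the gene, in GRCm38.p6, with each CpG in capitals. *Nanog* (chr6:122707239-122707488, plus strand) and *Sox2* (chr3:34649745-34649994, plus strand) had a peak over this stretch in the 4 Oct4+ nEnd libraries. *Foxa2* (chr2:148046970-148047219, minus strand) and *Flt1* (chr5:147726012-147726261, minus strand) had one in the 3 Pdgfra+ nEnd libraries, and *Tet1* (chr10:62887325-62887574, minus strand) in all 7.
Nanog: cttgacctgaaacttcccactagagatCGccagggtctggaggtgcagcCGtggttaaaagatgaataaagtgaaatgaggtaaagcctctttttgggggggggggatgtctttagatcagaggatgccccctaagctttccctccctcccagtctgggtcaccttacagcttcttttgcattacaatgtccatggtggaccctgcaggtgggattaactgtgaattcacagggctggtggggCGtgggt
Sox2: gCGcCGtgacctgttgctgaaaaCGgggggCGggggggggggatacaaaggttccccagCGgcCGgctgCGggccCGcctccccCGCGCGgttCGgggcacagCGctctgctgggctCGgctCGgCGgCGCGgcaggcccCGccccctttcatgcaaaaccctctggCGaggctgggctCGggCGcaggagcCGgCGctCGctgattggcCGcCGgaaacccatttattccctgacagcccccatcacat
Foxa2: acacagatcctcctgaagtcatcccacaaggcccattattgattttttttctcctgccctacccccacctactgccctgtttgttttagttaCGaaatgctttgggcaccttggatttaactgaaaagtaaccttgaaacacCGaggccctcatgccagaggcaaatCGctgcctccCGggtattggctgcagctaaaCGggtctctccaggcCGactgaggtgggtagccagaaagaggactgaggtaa
Flt1: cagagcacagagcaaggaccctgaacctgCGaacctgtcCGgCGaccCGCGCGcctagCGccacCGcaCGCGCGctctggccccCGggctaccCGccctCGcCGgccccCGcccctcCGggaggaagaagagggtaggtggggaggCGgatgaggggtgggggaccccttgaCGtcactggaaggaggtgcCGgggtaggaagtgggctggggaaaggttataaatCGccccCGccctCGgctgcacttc
Tet1: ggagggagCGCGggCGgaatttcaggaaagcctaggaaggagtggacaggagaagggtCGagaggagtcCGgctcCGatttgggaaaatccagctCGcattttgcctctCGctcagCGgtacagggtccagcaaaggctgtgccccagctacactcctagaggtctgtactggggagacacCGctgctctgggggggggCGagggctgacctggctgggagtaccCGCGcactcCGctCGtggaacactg
These stretches held 3 CpG for *Nanog*, 27 for *Sox2*, 6 for *Foxa2*, 23 for *Flt1* and 15 for *Tet1*. The number of CpG relative to the number its C and G content would give was 0.18 for *Nanog* and 0.38 for *Foxa2*, against 0.83 for *Sox2*, 0.74 for *Flt1* and 0.63 for *Tet1*. Promoters marked in one population and not in the other thus came with many and with few CpG.

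A peak was present in all 4 Oct4+ nEnd libraries and in none of Pdgfra+ nEnd at 79 genes, 0.362% of all 21853, lying in 75 separate regions. The reverse held for 310 genes, 1.42%, in 301 regions. All 7 libraries marked 3560 genes, and none marked 10389. With equal peak numbers the counts were 381 (1.74%) and 482 (2.21%), and 56 of the 79 and 61 of the 310 genes were found again. The count of Oct4+ genes rose to 156 without Pdgfra+ nEnd replicate 1 and to 125 without Oct4+ nEnd replicate 3. That of Pdgfra+ genes rose to 557 without Oct4+ nEnd replicate 1 and to 627 without Pdgfra+ nEnd replicate 2.

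The strongest of the 79 promoters were at the very top of the Oct4+ nEnd lists. *Esrrb*, an orphan nuclear receptor of naive pluripotency, lay at percentiles 99.2 to 100 with peaks 44034, 27241, 14176 and 27354 bp wide in replicates 1 to 4. *Mymx*, which codes for a small protein of myoblast fusion, lay at 99.8, 99.8, 99.7 and 99.6. Its peak also covered a promoter of *Slc29a1*, a nucleoside transporter, for which Pdgfra+ nEnd replicates 1 and 3 had weak peaks at percentiles 32.6 and 4.53. *Nanog* lay at 99.3, 99.3, 97.6 and 96.8, and *Sox2* at 98.5, 98.7, 98.4 and 98.5. *Utf1*, a chromatin factor of pluripotent cells, spanned 97.6 to 99.3. *Notum*, whose enzyme inactivates WNT ligands, spanned 91.3 to 95.7. Peaks at these genes were therefore far above the weakest that SEACR called, in each of the 4 libraries.

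Ligands and receptors of the Epi were among the 79. *Nodal*, the TGF-beta family ligand of the early embryo, lay at 98.9, 99.1, 95.7 and 98.0 in Oct4+ nEnd. *Tdgf1*, its co-receptor, lay at 97.7, 89.4, 93.0 and 92.9. *Gdf3*, a related ligand, lay at 97.5, 97.0, 92.5 and 92.3. *Bmp4* spanned 89.5 to 97.4 and *Fgf4*, the signal by which the Epi induces PrE, 83.2 to 94.7. None of these 5 had a promoter peak in any Pdgfra+ nEnd library, and they were 5 of the 13 genes listed as Epi ligands, receptors and feedback genes, beside the 0.362% of all genes.

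The strongest of the 310 promoters belonged to genes of several kinds. *Foxa2* lay at 99.9, 98.2 and 99.9 in Pdgfra+ nEnd replicates 1 to 3. *Flt1*, a receptor of VEGF, lay at 98.3, 98.4 and 98.9. *Adora1*, an adenosine receptor, spanned 96.9 to 98.7. *Hs3st1*, which sulphates heparan sulphate, spanned 96.0 to 99.2, and *Gpc6*, a glypican that carries such chains, 89.2 to 95.4. *Lrrc38* spanned 91.7 to 98.9, *Creb3l1* 88.0 to 96.7 and *Osbpl6* 88.0 to 91.35. *Bmp2* spanned 86.0 to 91.6, so that the *Bmp2* and *Bmp4* promoters were marked in opposite populations. Lower in the ranking were *Dab2*, an endocytic adaptor of PrE, at 93.5, 52.3 and 82.9, *Krt8*, an epithelial keratin, at 89.5, 69.4 and 83.0, and *Sox7* at 80.5, 41.8 and 60.7. None of these genes was marked in an Oct4+ nEnd library.

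Both sets were looked up in the DP nEnd libraries. Of the 310 genes marked in Pdgfra+ nEnd and not in Oct4+ nEnd, 268 (86.5%) were marked in all 3 DP nEnd libraries and 1 (0.323%) in none. Of the 79 genes of the opposite set, 24 (30.4%) were marked in all 3 DP nEnd libraries and 40 (50.6%) in none. Of all 21853 genes, 38.3% were marked in all 3 DP nEnd libraries and 55.3% in none, near the shares of the 79. The difference between the sets was not tested.

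CpG content was counted for each set. Within 300 bases around the start sites, 26.6% of the 79 Oct4+ promoters (21 genes) had an observed over expected CpG above 0.6, against 54.5% of the 310 Pdgfra+ promoters (169 genes). The share was 78.7% for the 3560 genes marked in all 7 libraries, 11.4% for genes marked in none and 41.3% for all genes. The median number of CpG per promoter was 9.67 for the Oct4+ set and 17.5 for the Pdgfra+ set, against 23 for genes marked throughout. These shares are descriptions of the sets and were not tested.

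The percentile was then compared across the 9110 genes marked in at least 3 of the 7 libraries, with a library without a promoter peak entered as 0. With limma and Benjamini-Hochberg adjustment, 348 genes (3.82%) were higher in Oct4+ nEnd and 946 (10.4%) were lower, and the median difference over all genes tested was -10.7 percentile points. With equal peak numbers 1046 of 4848 genes (21.6%) were higher and 1246 (25.7%) lower, so that Oct4+ nEnd took 45.6% of the calls in place of 26.9%. The counts depended on single libraries. Higher genes numbered 564 without Oct4+ nEnd replicate 3, 227 without Pdgfra+ nEnd replicate 2 and 206 without Pdgfra+ nEnd replicate 3. Lower genes numbered 1892 without Oct4+ nEnd replicate 1, 534 without Oct4+ nEnd replicate 4, and 237, 485 and 103 without Pdgfra+ nEnd replicates 1, 2 and 3. In these last 3 fits 8123, 8780 and 8605 genes were tested, and genes marked in Pdgfra+ nEnd alone were not among them.

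**Figure D1:**
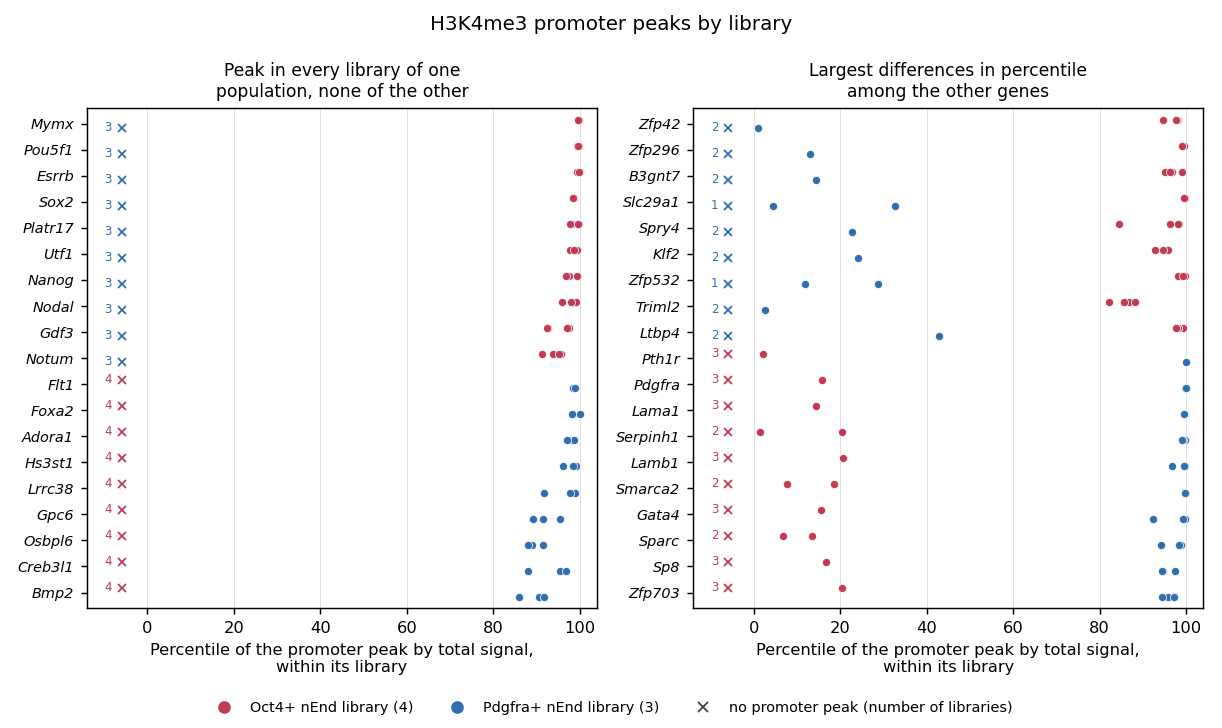
Percentile of the promoter peak by total signal within its library (horizontal axis) for up to 10 genes per direction named by rule, with red points for the 4 Oct4+ nEnd and blue for the 3 Pdgfra+ nEnd libraries, and crosses with the number of libraries that had no peak. *Nanog* sits between 96.8 and 99.3 in Oct4+ nEnd with no peak in Pdgfra+ nEnd (left), and *Pth1r* above 99 in Pdgfra+ nEnd with 1 peak at 2.27 in Oct4+ nEnd (right).

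Factors of naive pluripotency ranked higher in Oct4+ nEnd. Of 25 listed genes 21 could be tested, of which 14 were higher, *Pou5f1* of the reporter among them, and 0 lower, with a median difference of 66.1 percentile points, beside 3.82% higher, 10.4% lower and a median of -10.7 points over all genes. Equal peak numbers gave 15 higher and 1 lower of 20, beside 21.6% higher and 25.7% lower over all genes. 3 were marked in no library (*Dppa2*, *Dppa3* and *Dppa4*). *Zfp42*, a zinc finger protein of naive cells, lay at 98.0, 97.9, 94.6 and 97.6 in Oct4+ nEnd and differed by 96.7 ± 15.5 points (SE, limma adjusted p = 7.96e-05). *Klf2*, a Krüppel-like factor of the naive network, lay at 95.7, 95.8, 92.8 and 94.7, against 24.2 in Pdgfra+ nEnd replicate 1 and no peak in replicates 2 and 3. *L1td1*, an RNA-binding protein of pluripotent cells, lay at 97.3 to 99.2 in Oct4+ nEnd, against 49.4, no peak and 18.1 in Pdgfra+ nEnd. The groups did not overlap at any of these 3 genes, which the rule that named *Zfp42* and *Klf2* required.

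Not all of the naive list moved. *Sall4* lay at 98.0 to 99.7 in Oct4+ nEnd and 99.4 to 99.55 in Pdgfra+ nEnd (limma adjusted p = 0.893), and *Sall1*, a related factor, at 98.3 to 99.4 and 95.8 to 99.2 (adjusted p = 0.786). *Klf4* was marked at 97.7, 97.9, 95.8 and 94.97 in Oct4+ nEnd and at 99.5, 98.7 and 99.6 in Pdgfra+ nEnd. Among genes marked in all 7 libraries it was the 1 naive factor called lower in Oct4+ nEnd (adjusted p = 0.0208), a call that was lost without Oct4+ nEnd replicate 4 or Pdgfra+ nEnd replicate 1 or 3. *Prdm14*, a repressor of DNA methylation genes, and *Nr5a2*, a nuclear receptor, had peaks in the 4 Oct4+ nEnd libraries alone, at 46.3 to 87.3 and 13.8 to 96.2, and were no longer called without Pdgfra+ nEnd replicate 3. *Nr0b1*, at 20.1 to 56.4 with no peak in Pdgfra+ nEnd, did not pass (adjusted p = 0.0563).

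*Spry4* and *Dusp6*, which are feedback genes of FGF signalling, ranked higher in Oct4+ nEnd. *Spry4*, an inhibitor of the pathway, lay at 98.4, 98.2, 84.4 and 96.4 in Oct4+ nEnd, against 22.7 in Pdgfra+ nEnd replicate 1 alone. *Dusp6*, a phosphatase that acts on ERK, lay at 98.4, 98.5, 94.8 and 96.9, against 75.0, 45.5 and 58.2. The difference for *Dusp6* was 37.6 ± 6.80 points (SE, limma adjusted p = 0.000208). Of the 13 genes of the Epi ligand, receptor and feedback list 11 were tested, with 8 higher and 0 lower and a median difference of 86.8 points, beside 3.82%, 10.4% and -10.7 points over all genes. Equal peak numbers gave 8 higher and 0 lower of 9, beside 21.6% and 25.7%. Of 19 genes of the formative and primed Epi 15 were tested, with 4 higher (*Utf1*, *Dppa5a*, *Foxd3* and *Zic5*) 0 lower and a median of 7.99 points, and with equal peak numbers 4 of 9 were higher. The count with all peaks fell to 1 without Oct4+ nEnd replicate 2 or 4 or Pdgfra+ nEnd replicate 2 or 3 and to 2 without Pdgfra+ nEnd replicate 1, where *Utf1* was still called, and it was 6 without Oct4+ nEnd replicate 3.

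PrE factors ranked lower in Oct4+ nEnd. *Gata4* lay at 99.8, 92.3 and 99.2 in Pdgfra+ nEnd, against 15.7 in Oct4+ nEnd replicate 1 and no peak in the others, a difference of -93.2 ± 16.8 points (SE, limma adjusted p = 0.000194). *Sox17* lay at 99.7, 99.3 and 99.3, against 41.0 and 12.9 in Oct4+ nEnd replicates 1 and 2. Of 20 listed factors 15 were tested, with 0 higher, 11 lower and a median of -57.8 points, beside 3.82% higher, 10.4% lower and -10.7 points over all genes. The count with equal peak numbers was 10 lower of 12, beside 25.7% of all genes. *Hhex*, a homeobox factor of endoderm, overlapped between the groups, at 10.3 to 68.8 in Oct4+ nEnd and 39.2 to 62.3 in Pdgfra+ nEnd. *Eomes*, which acts in mesoderm and endoderm, had peaks in Oct4+ nEnd replicates 1 and 2 at 42.7 and 47.9 and in Pdgfra+ nEnd replicate 1 at 15.6, and was not called (adjusted p = 0.348). The count was 8 without Oct4+ nEnd replicate 4, and 4, 5 and 3 without Pdgfra+ nEnd replicates 1, 2 and 3, where 10 or 11 of the list were tested.

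Receptors and signals of the endoderm gave a similar count, 11 lower of 15 tested among 22 listed, with a median of -51.9 points, against 10.4% lower and a median of -10.7 points over all genes. Of 13 tested with equal peak numbers 8 were lower, against 25.7%. Beside *Pdgfra* itself and *Flt1* these included *Fst*, a binder of activin, *Ihh*, a hedgehog ligand marked at 49.4 to 70.6 in Pdgfra+ nEnd alone, and *Fgfr3*, at 41.7 to 61.4 in Pdgfra+ nEnd alone. *Vegfa*, the ligand of *Flt1*, was marked in both populations, at 77.9, 78.7, 65.1 and 70.5 in Oct4+ nEnd and 98.7, 95.3 and 98.5 in Pdgfra+ nEnd, and was lower in Oct4+ nEnd in log2 odds of the percentile (limma adjusted p = 0.000114). The count was 9 without Oct4+ nEnd replicate 4, and 4, 4 and 3 without Pdgfra+ nEnd replicates 1, 2 and 3, where 9 of the list were tested. A filter of 3 marked libraries admits a gene of one population through that population alone, so the list counts describe these genes and give no separate support.

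Genes of the basement membrane and of collagen folding lay among the lowest differences. *Col4a1* and *Col4a2*, which share one promoter and code for the chains of type IV collagen, lay at 99.99, 99.98 and 99.99 in Pdgfra+ nEnd, against 32.8 and 13.8 in Oct4+ nEnd replicates 1 and 2. The difference was -88.3 ± 16.8 points (SE, limma adjusted p = 0.000396). *Lama1* (laminin alpha 1) lay at 99.8, 99.5 and 99.5, against 14.5 in Oct4+ nEnd replicate 1, and *Lamb1* (laminin beta 1) at 99.8, 96.7 and 99.5, against 20.6 in that library. *Sparc*, a secreted binder of collagen, spanned 94.3 to 98.9 in Pdgfra+ nEnd, against 13.4 and 6.88 in Oct4+ nEnd replicates 1 and 2. *Serpinh1*, the collagen chaperone HSP47, lay at 99.1 to 99.7 against 20.4 and 1.42 in the same libraries. Of 20 listed genes 16 were tested, with 11 lower and 1 higher and a median of -73.1 points, beside 10.4% lower, 3.82% higher and -10.7 points over all genes, and leaving out single libraries gave 9 to 12 lower. Equal peak numbers gave 11 lower and 2 higher of 16, beside 25.7% and 21.6%. The higher gene was *Lama5*, laminin alpha 5, not called without Oct4+ nEnd replicate 4 or Pdgfra+ nEnd replicate 2 or 3.

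*Pth1r*, the receptor of parathyroid hormone related peptide and a marker of parietal endoderm, had the lowest difference of the genes that the rule named for percentile with absent as 0. It shares its peak with *Myl3* and lay at 99.89, 99.88 and 99.95 in Pdgfra+ nEnd, against 2.27 in Oct4+ nEnd replicate 1. The difference was -99.3 ± 16.7 points (SE, limma adjusted p = 9.65e-05). *Smarca2*, an ATPase of the SWI/SNF complex, lay at 99.8 in each Pdgfra+ nEnd library, against 18.5 and 7.8 in Oct4+ nEnd replicates 1 and 2. Of 18 secreted proteins of mature visceral endoderm 15 (83.3%), among them *Afp*, *Ttr* and *Apoa1*, were marked in none of the 7 libraries, beside 47.5% of all genes. *Apoe*, an apolipoprotein and 1 of the 2 genes of this list that could be tested, was called higher in Oct4+ nEnd, a call lost without any 1 of the 3 Pdgfra+ nEnd libraries.

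Other gene lists had calls in both directions or few calls. The shares over all genes were 3.82% higher and 10.4% lower with all peaks and 21.6% and 25.7% with equal peak numbers. Of 17 genes of epithelial junctions and keratins 16 were tested, with 6 lower (*Krt8*, *Ocln*, *Esrp1*, *Krt18*, *Esrp2* and *Pard3*) and *Cldn4*, a tight junction claudin at 90.6 to 97.3 in Oct4+ nEnd alone, higher. Of 13 tested with equal peak numbers 4 were higher and 6 lower. The count of lower genes was 4 without Oct4+ nEnd replicate 4, and 1, 2 and 0 without Pdgfra+ nEnd replicates 1, 2 and 3, where 13 of the list were tested. Of the trophectoderm list 8 of 20 were tested, with *Tfap2c*, also a factor of germ cells, higher and *Krt8*, *Lrp2*, *Elf3*, *Krt18* and *Gata3* lower. Of 6 tested with equal peak numbers 1 was higher and 4 were lower. With all peaks the lower count was 2, 3 and 1 without Pdgfra+ nEnd replicates 1, 2 and 3, where 5 of the list were tested. *Tfap2c* was not called without Pdgfra+ nEnd replicate 1 or 3. *Snai1*, a repressor of epithelial genes, was the 1 gene called of 3 tested among the mesoderm genes, at 78.7, 62.8 and 83.3 in Pdgfra+ nEnd and 2.2 in Oct4+ nEnd replicate 1. None of 1 fibroblast gene, 4 of 39 Hox genes and 12 adhesion and proteoglycan genes tested was called. Equal peak numbers gave 3 higher and 1 lower of 7 adhesion genes and 1 lower of 1 Hox gene, too few to be read apart from the shares over all genes. Without Oct4+ nEnd replicate 1, 2 Hox genes and 1 adhesion gene were lower. Without Oct4+ nEnd replicate 2, 1 of each was lower. Without Oct4+ nEnd replicate 3, 1 Hox gene was lower and 2 adhesion genes were higher. Of 12 ubiquitous genes tested as controls, *Eif4a2*, a translation initiation factor, was called higher, and was not without Oct4+ nEnd replicate 4. Of 10 of these controls tested with equal peak numbers 4 were higher, with a median difference of 28.4 points against 2.54 with all peaks.

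The receptor and the effector of LIF signalling were not called. *Lifr*, the LIF receptor, lay at 36.8 to 83.9 in Oct4+ nEnd and 42.4 to 83.9 in Pdgfra+ nEnd (limma adjusted p = 0.981), and *Stat3*, its effector, at 6.59 to 54.9 and 48.9 to 77.4 (adjusted p = 0.281). Of 14 tested of 17 genes of this pathway, 0 were higher and 3 were lower in Oct4+ nEnd, *Jak2*, *Socs1* and *Socs3*, beside 10.4% lower over all genes, and with equal peak numbers 2 were higher and 3 lower of 9, near the 21.6% and 25.7% over all genes. Of the lower genes with all peaks, none was called without Pdgfra+ nEnd replicate 1 or 3. *Socs3*, a feedback inhibitor, lay at 81.9, 79.7, 82.6 and 82.5 in Oct4+ nEnd and 98.1, 96.0 and 97.4 in Pdgfra+ nEnd. Among genes marked in all 7 libraries it was lower whichever library was left out.

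**Figure D2:**
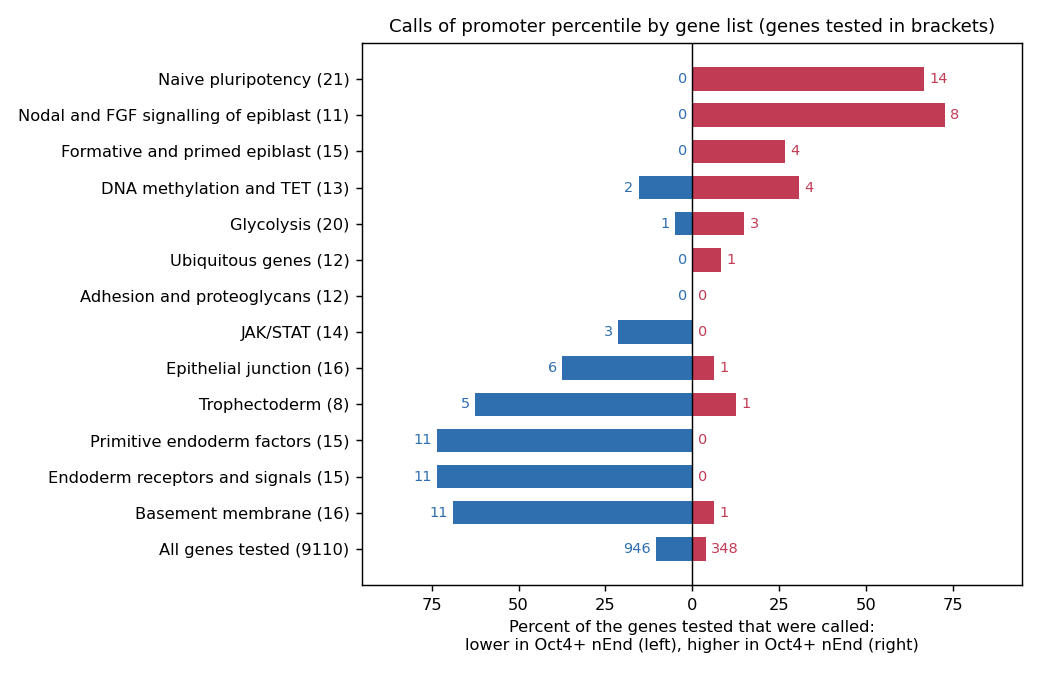
Percent of the genes tested per list (horizontal axis, number tested in brackets) that limma called lower (blue, left) or higher (red, right) in Oct4+ nEnd by percentile with absent peaks as 0, with the count at each bar. Naive factors (14 higher, 0 lower of 21) and PrE factors (0 higher, 11 lower of 15) lie on opposite sides, while 348 of all 9110 genes were higher and 946 lower.

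**Figure D3:**
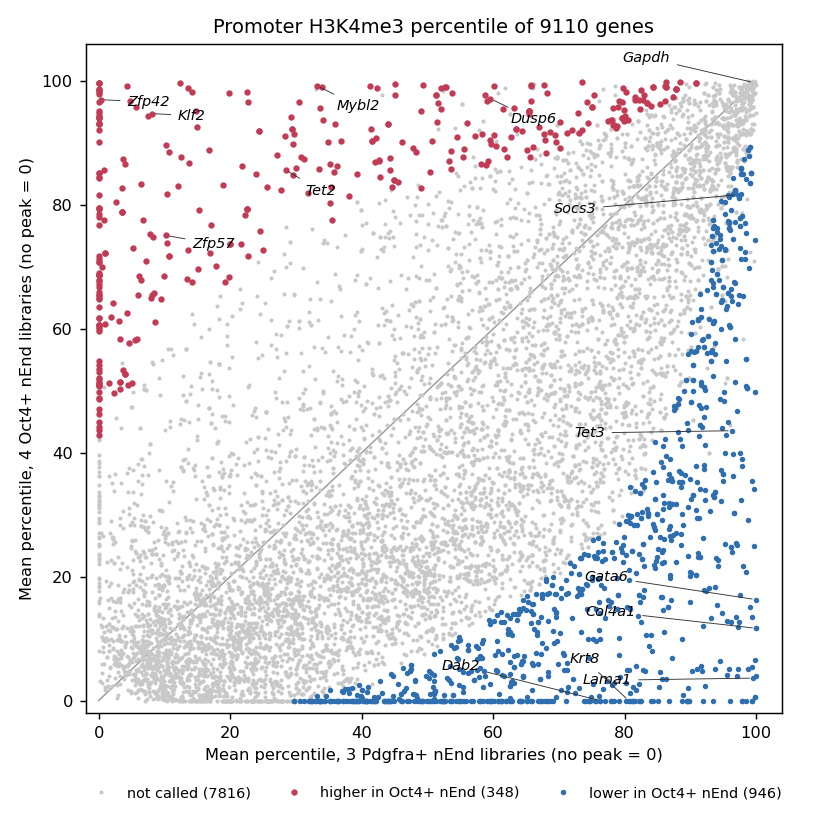
Mean percentile per gene over the 3 Pdgfra+ nEnd (horizontal axis) and the 4 Oct4+ nEnd libraries (vertical axis), absent peaks as 0, for the 9110 genes tested. Red points are the 348 genes higher in Oct4+ nEnd and blue points the 946 lower, with *Gapdh* near the diagonal and *Lama1* and *Col4a1* at the lower right.

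At the 3560 promoters marked in all 7 libraries, no absent value enters, and the log2 odds of the percentile rank were compared, a scale that spreads the top of each list. Here 186 genes (5.22%) were higher in Oct4+ nEnd and 326 (9.16%) lower, with a median difference of -0.52 over all genes tested. With equal peak numbers 399 of 2330 (17.1%) were higher and 441 (18.9%) lower, and Oct4+ nEnd then took 47.5% of the calls in place of 36.3%. Higher genes numbered 303 without Oct4+ nEnd replicate 3. Lower genes numbered 607 without Oct4+ nEnd replicate 1, 217 without Oct4+ nEnd replicate 4, and 211 and 189 without Pdgfra+ nEnd replicates 1 and 2.

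*Adprh*, an ADP-ribosylarginine hydrolase, had the largest rise of the genes named by rule. It lay at 99.8, 99.8, 98.8 and 99.7 in Oct4+ nEnd and at 53.9, 49.8 and 31.4 in Pdgfra+ nEnd, 8.49 ± 0.71 higher in log2 odds (SE, limma adjusted p = 4.8e-09). *Mybl2*, a MYB family factor of the cell cycle, lay at 98.9 to 99.6 against 51.6, 9.75 and 38.3. *Rarg*, a retinoic acid receptor, lay at 99.6 to 99.9 against 77.4, 67.0 and 76.3. *Zscan10*, a zinc finger factor of ESCs, lay at 97.4, 90.2, 88.0 and 93.7 against 48.8, 24.0 and 15.2. These promoters carried the mark in both populations but ranked near the top of the list in Oct4+ nEnd.

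*Lamc1*, the laminin gamma 1 chain, carried the mark in both populations too. It lay at 88.1, 81.8, 68.5 and 58.7 in Oct4+ nEnd and at 99.93, 99.86 and 99.88 in Pdgfra+ nEnd, a difference of -8.10 ± 0.69 in log2 odds (SE, limma adjusted p = 4.8e-09). *Rab11fip5*, an effector of recycling endosomes, lay at 23.2 to 77.1 against 99.6 to 99.9. *Sgce* and *Peg10*, imprinted neighbours that share a promoter, lay at 83.3, 70.2, 28.2 and 39.0 against 98.8, 98.0 and 98.8. The groups did not overlap at any of these promoters. *Gapdh*, a glycolytic enzyme used as a control, lay at 99.7 to 99.9 and 99.5 to 99.8 and was not called (adjusted p = 0.916).

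The TET dioxygenases, which oxidise 5-methylcytosine, went in opposite directions. *Tet1* lay at 99.9, 99.9, 99.7 and 99.9 in Oct4+ nEnd and 90.0, 87.4 and 81.3 in Pdgfra+ nEnd, 6.80 ± 0.69 higher in log2 odds (SE, limma adjusted p = 4.86e-08). *Tet3* lay at 58.9, 59.9, 25.9 and 29.6 in Oct4+ nEnd and 94.9, 96.7 and 97.3 in Pdgfra+ nEnd, a difference of -5.17 ± 0.77 (adjusted p = 2.98e-05). Both calls held whichever library was left out. *Tet2*, at 75.6 to 97.1 in Oct4+ nEnd and at 48.0, no peak and 37.3 in Pdgfra+ nEnd, was higher by percentile with absent as 0 (adjusted p = 0.00727). The methyltransferases *Dnmt1*, *Dnmt3a* and *Dnmt3b* were not called, with adjusted p of 0.275, 0.698 and 0.769. Of 14 genes of DNA methylation 13 were tested by percentile with absent as 0, with 4 higher and 2 lower, beside 3.82% and 10.4% over all genes, and 1 and 0 without Pdgfra+ nEnd replicate 3. Of 12 tested with equal peak numbers 9 were higher and 1 lower, with a median difference of 29.9 points against 7.99, beside 21.6% higher and 25.7% lower over all genes. The ubiquitous controls had a similar median of 28.4 points under that setting, with 4 higher and 0 lower of 10.

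Of 22 genes of glucose use 20 were tested, with 3 higher and 1 lower, beside 3.82% higher and 10.4% lower over all genes, and a median difference of -0.20 points. Equal peak numbers gave 5 higher and 2 lower of 17, beside 21.6% and 25.7% over all genes. *Slc2a3*, the glucose transporter GLUT3, lay at 98.7, 98.8, 96.3 and 97.1 in Oct4+ nEnd and 80.9, 27.0 and 68.5 in Pdgfra+ nEnd, 4.99 ± 0.77 higher in log2 odds (SE, limma adjusted p = 6.44e-05). *Pdk1*, a kinase that holds back pyruvate dehydrogenase, was higher by 4.62 (adjusted p = 0.00113). *Pfkp*, a phosphofructokinase, was marked in Oct4+ nEnd alone, at 79.5, 84.0, 39.7 and 71.9, and its call was lost without Pdgfra+ nEnd replicate 3. The lower gene, *Bnip3*, a mitochondrial protein of low oxygen, was not called without any 1 of the Pdgfra+ nEnd libraries.

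Width was the last measure. The median promoter peak was 3998, 3399, 3488 and 4052 bp wide in Oct4+ nEnd replicates 1 to 4 and 3820, 2207 and 3036 bp in Pdgfra+ nEnd replicates 1 to 3. The means of 3734 ± 338 bp (SD, n = 4) and 3021 ± 807 bp (SD, n = 3) differed by 713 bp, within the spread between libraries (exact permutation test, two-sided, p = 0.143, smallest possible 0.0286). Promoter peaks of 5 kb or more numbered 2345, 1173, 526 and 1302 in Oct4+ nEnd and 2260, 75 and 557 in Pdgfra+ nEnd (exact permutation p = 0.543). The difference of 372.5 peaks turned to -72 without Pdgfra+ nEnd replicate 2, which had the narrowest peaks.

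Since whole libraries differed in width, each library was centred on its median over the 3560 shared promoters before genes were compared. Relative to that median, 191 genes (5.37%) were wider in Oct4+ nEnd and 103 (2.89%) narrower. Uncentred widths were 0.27 higher in log2 in Oct4+ nEnd at the median gene and gave 82 wider and 1 narrower, a share of 98.8% wider calls in place of 65.0%, so the directions below are relative to the median promoter. With equal peak numbers 98 of 2330 (4.21%) were wider and 55 (2.36%) narrower. Wider genes numbered 111 and 108 without Pdgfra+ nEnd replicates 2 and 3. Narrower genes numbered 52 without Oct4+ nEnd replicate 4, and 60, 54 and 44 without Pdgfra+ nEnd replicates 1, 2 and 3.

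The *Adprh* peak was 23769, 22441, 11782 and 23638 bp wide in Oct4+ nEnd and 3497, 2262 and 2091 bp in Pdgfra+ nEnd, 6.35-fold wider relative to the library medians (limma adjusted p = 8.67e-05). In Oct4+ nEnd it also covered the promoter of *Cd80*, an immune co-stimulatory ligand. *Glo1*, which detoxifies methylglyoxal, was 16835, 12740, 7453 and 13854 bp wide against 2558, 1444 and 1817 bp, 5.33-fold (adjusted p = 9.23e-06). *Tet1* was 30753, 19337, 10183 and 30490 bp wide against 5155, 2132 and 4055 bp, 4.82-fold (adjusted p = 0.00113). Every Oct4+ nEnd library had a wider peak than every Pdgfra+ nEnd library at these 3 genes, in base pairs as deposited. *Mybl2* (4.33-fold), *Fdft1*, the squalene synthase (3.88-fold), and *Phc1*, a Polycomb subunit (3.52-fold), were also among the genes with the highest fold.

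*Lamc1* had the lowest fold in width of the genes named by rule. Its peak was 5000, 4185, 3431 and 5076 bp wide in Oct4+ nEnd against 24259, 5394 and 11713 bp in Pdgfra+ nEnd. That was 0.312-fold relative to the library medians (limma adjusted p = 0.0015). *Arhgef17*, a guanine nucleotide exchange factor, was 3890, 4017, 2882 and 3859 bp wide against 9946, 7014 and 8082 bp, 0.362-fold (adjusted p = 0.000327). *Bcl9l*, a co-activator of beta-catenin, stood at 0.395-fold. *Insig1*, which restrains cholesterol synthesis, stood at 0.495-fold. At *Lamc1* and *Arhgef17* the widths did not overlap between the populations, even uncentred, but *Lamc1* no longer passed with uncentred widths (adjusted p = 0.0687), nor did *Bcl9l* (0.0878) or *Insig1* (0.3).

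**Figure D4:**
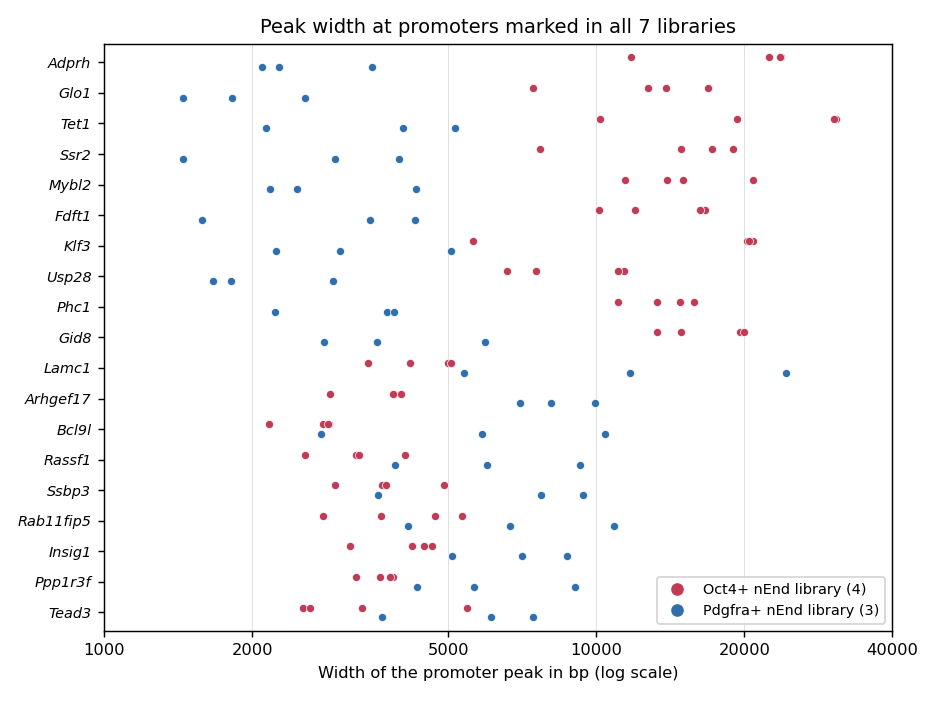
Width of the promoter peak (horizontal axis, bp, log scale, as deposited) in each Oct4+ nEnd (red) and Pdgfra+ nEnd (blue) library for up to 10 genes per direction named by rule. At *Adprh*, *Glo1* and *Tet1* the 4 Oct4+ nEnd peaks are wider than the 3 Pdgfra+ nEnd peaks, and at *Lamc1* and *Arhgef17* they are narrower.

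At 22 of the 21853 genes the peak was 10 kb or wider in all 4 Oct4+ nEnd libraries and in no Pdgfra+ nEnd library. These included the pluripotency genes *Esrrb*, *L1td1*, *Zfp296* and *Tet1* beside *Rarg*, *Mybl2*, *Phc1*, *Pml*, the organiser of PML nuclear bodies, and *Klf9*. The others were *Adprh*, *Ahdc1*, *Bcat2*, *Dido1*, *Fdft1*, *Gemin7*, *Gid8*, *Hnrnpf*, *Mkrn1*, *Mymx*, *Slc29a1*, *Zbtb7a* and *Zfp532*. Pdgfra+ nEnd replicate 2 held 1 promoter peak of 10 kb or more, replicate 3 held 19 and replicate 1 held 134, against 37 to 311 in Oct4+ nEnd. With 1 such peak in replicate 2, the reverse condition could hardly be met, and nothing is read from it. For the same reason absence from Pdgfra+ nEnd replicates 2 and 3 was nearly given, so the 22 genes describe broad peaks of Oct4+ nEnd.

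Rank and width moved together. Of the 186 shared promoters higher in Oct4+ nEnd by rank, 94 were called wider and 0 narrower, with a median width 1.81-fold that of Pdgfra+ nEnd relative to the library medians. Of the 326 lower by rank, 54 were called narrower and 0 wider, with a median of 0.772-fold. Over all 3560 genes tested 5.37% were wider and 2.89% narrower. Ranked by the highest coverage within the peak instead, 26 of the 186 and 27 of the 326 were called in the same direction. *Tet1*, *Adprh* and *Zscan10* were among those not called by highest coverage, with adjusted p of 0.549, 0.0863 and 0.543, while *Mybl2* and *Lamc1* were called by both. Total signal contains the width, so the pair of measures is not independent.

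**Figure D5:**
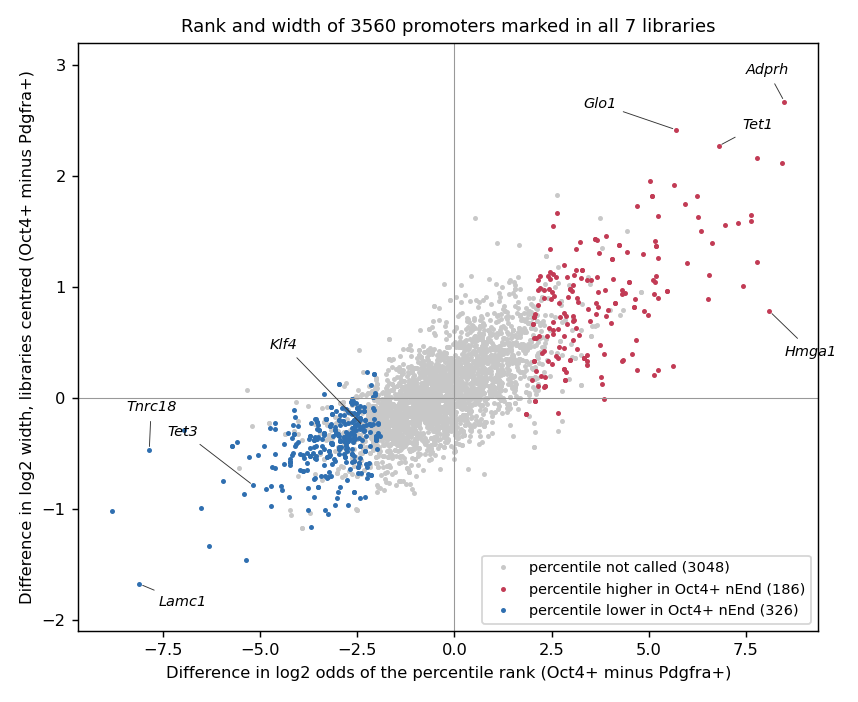
Difference in log2 odds of the percentile (horizontal axis) and in log2 width relative to the library median (vertical axis), Oct4+ nEnd minus Pdgfra+ nEnd, for the 3560 genes marked in all 7 libraries, coloured by the call on rank. Of the 186 genes higher by rank 180 lie above 0 in width, and of the 326 lower by rank 315 lie below it.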

How the data were processed

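Mouse nEnd of the OCT4-mCherry line were sorted and profiled by CUT&Tag for H3K4me3. Per the labels, the submitters' processing notes name bcl2fastq 2.19.1, Bowtie2, SAMtools 1.12, deepTools, bedtools 2.26.0, SEACR and the mm10 build. The authors deposited stringent SEACR peaks, called against IgG, giving for each the total signal and the highest coverage, which is signal. Whether it was scaled between libraries is not given in the sources used here and the depth is unknown, so no counting interval was computed, and signal entered only as ranks within a library.

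Promoters were taken around 54361 TSS of 21853 protein-coding genes of GENCODE M21 (GRCm38.p6), 1000 bp upstream to 100 bp downstream, with an overlap of 1 bp. Percentiles and widths were compared with limma 3.58.1 in R 4.3.3 (eBayes with trend and robust), 4 against 3 libraries, with Benjamini-Hochberg adjustment over all genes tested and a threshold of 0.05. A library without a peak entered as 0 only in the percentile fit of genes marked in at least 3 libraries. Log2 width was centred on the median of each library. Single values per library were compared by exact permutation tests over the 35 assignments. No 2 libraries of a population shared more than 0.0355% of promoter peak positions, so none was a copy of another list. Whether 2 libraries came from one culture cannot be told from this. The fits were tested on simulated data. Python 3.11.15 was used for the rest.

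Named genes were the members of 17 lists (316 genes) and, per comparison and direction, at most 10 genes past the threshold with the largest difference, or for presence with the highest lowest percentile. Genes that share their peaks count once. Members, lists and the rule were chosen with earlier results of these data known. CpG were counted in the 300 bases around each TSS, as the mean per gene, and the printed stretches are from RefSeq. Alternatives were another window, overlap, ranking, number of peaks, filter or fit, and leaving out each library. Other histone marks and RNA were not analysed here. A few genes that the rule gives are not reported here.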

Additional observations from a re-analysis of the deposited data

Results flagged for a closer look

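Of 59 groups of 4 Oct4+ nEnd values tested for a single value far from the others, 8 passed the 95% limit of Dixon's ratio. Chance gives about 1 in 20 groups. Oct4+ nEnd replicate 3, the library with the fewest peaks, was the low value in 6 of them. Its percentile was 94.6 at *Zfp42*, 84.4 at *Spry4* and 98.8 at *Adprh*, each below the other 3 libraries. Its peak was 11782 bp wide at *Adprh*, 5611 bp at *Klf3* and 2882 bp at *Arhgef17*, each narrower than in the other 3. *Ssr2*, a subunit of the translocon-associated complex, lay at percentile 90.0 in Oct4+ nEnd replicate 2, below the others. *Bcl9l* had its narrowest peak, 2159 bp, in Oct4+ nEnd replicate 1. Without Oct4+ nEnd replicate 3, the calls of *Zfp42* and *Spry4* by percentile, of *Adprh* by percentile and width, and of *Klf3* and *Arhgef17* by width held.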

How the results depend on the processing

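Counts depended on the ranking and on single libraries more than on the promoter window: with 2500 bp on each side of the TSS, 50% of the window covered, or the TSS of all transcripts (chosen after seeing the data), every count of calls stayed within 1.5 times. With equal peak numbers, presence gave 381 and 482 genes, percentile with absent as 0 gave 1046 higher, percentile of genes marked in all 7 gave 399 higher, and width gave 98 wider and 55 narrower. Ranked by highest coverage, percentile with absent as 0 gave 86 higher and 312 lower, and genes marked in all 7 gave 27 and 33. Without robust and trend, 220 were higher with absent as 0 and 139 lower among genes marked in all 7. Testing genes marked in at least 1 library gave 515 lower. Ranks among the genes tested gave 649 higher and 693 lower, and untransformed percentiles 168 lower. Uncentred width gave 82 wider and 1 narrower. Under the ranking by highest coverage *Usp28* turned to -5.38 points (adjusted p = 0.902) and -0.36 in log2 odds (0.919), *Mbd3* to -6.11 points (0.824) and *Klf4* to 0.24 (0.939). The causes were not tested.

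Leaving out 1 library at a time gave 79 to 156 and 310 to 627 genes by presence, 206 to 564 higher and 103 to 1892 lower with absent as 0, 129 to 303 higher and 189 to 607 lower among genes marked in all 7, and 108 to 240 wider and 44 to 95 narrower. The difference in median width ranged from 306 to 1113 bp, and that in promoter peaks of 5 kb or more from -72 (exact permutation p = 0.933) to 1020. Of the comparisons of named genes without 1 library, 1455 kept their side of the threshold, 181 lost and 16 gained a call.

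With the replicate number as a block, percentile with absent as 0 gave 600 lower and width 55 narrower, and 25 of the comparisons of named genes lost their call while 2 gained one. Oct4+ nEnd replicate 4 has no partner of its number, so it did not bear on the difference in that fit. Leaving it out without a block gave 534 lower and 52 narrower. Same-numbered libraries deviated together with correlations of 0.157, 0.134 and 0.025, so the numbers were not taken as pairs. Oct4+ nEnd replicates 1, 2 and 3 each correlated best with their own number, but Pdgfra+ nEnd replicate 3 did so with Oct4+ nEnd replicate 4 (0.17).

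Reads per library are unknown: a missing peak means that none was called at that depth.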
